A study of Mus musculus with 16 samples.

Results

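The laminins and nidogens are the glycoproteins that lay down the basement membrane, the thin matrix sheet on which epithelial cells rest and which surrounds germ cell cords, follicles and vessels in the ovary. The genes of the family followed here were the laminin α chains Lama1, Lama2, Lama3, Lama4 and Lama5, the β chains Lamb1 and Lamb2, the γ chain Lamc1, and the nidogens Nid1 and Nid2. They were taken by family membership, but with earlier results of these data known. All 10 of 10 were measured among 18193 genes on the array. No filter on low values was applied, so no member was lost to one. The 10 members were covered by 20 probe sets, and for each gene the probe set with the highest mean level over all ovaries was used.

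A laminin is a trimer of one α, one β and one γ chain. The α chain carries the domains that bind integrins and dystroglycan on the cell surface, and the short arms of the chains join into a polymer. Nidogens bind the laminin γ1 chain and link the laminin polymer to the type IV collagen network. In the mouse the α1 chain is typical of early and epithelial basement membranes, the α5 chain of many maturing epithelia, the α2 chain of muscle and mesenchyme, the α4 chain of vessels, and the α3 chain of stratified epithelia.

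The samples were 16 newborn XX mouse ovaries, each hybridised to 1 array, with 4 ovaries in each of 4 genotypes. DKO ovaries were Runx1-/f, Foxl2-/- and Sf1-cre+/Tg, Foxl2 KO ovaries were Runx1+/f and Foxl2-/- without the Cre transgene, Runx1 KO ovaries were Runx1-/f, Foxl2+/+ and Sf1-cre+/Tg, and control ovaries were Runx1+/f and Foxl2+/+ without the Cre transgene. Every ovary therefore carried a floxed Runx1 allele. RUNX1 and FOXL2 are transcription factors of the pre-granulosa cells, the supporting cells that enclose the oocytes, and the question put to these genes was how their transcripts differed when either factor or both were missing. The Cre is driven by Sf1 in somatic cells of the gonad, so other cells of the Runx1 KO and DKO ovaries kept a floxed Runx1 allele beside a null one, whereas Foxl2 was null in all cells. The Cre transgene was present in the groups that lacked Runx1 and in no other group, so the transgene and the loss of Runx1 cannot be told apart.

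The deposited intensities had nearly the same trimmed mean on each array, and their medians lay between 134 and 177. Foxl2 intensity was 570 to 839 in DKO ovaries, 484 to 890 in Foxl2 KO ovaries, 2641 to 3585 in Runx1 KO ovaries and 2774 to 4241 in control ovaries. Runx1 intensity was 2112 to 2370 in DKO ovaries, 2356 to 3054 in Foxl2 KO ovaries, 932 to 2127 in Runx1 KO ovaries and 2142 to 2359 in control ovaries. The Runx1 signal thus lay below every control in the ovaries labelled Runx1 KO and overlapped the controls in the ovaries labelled DKO, and where its probes sit within the Runx1 gene was not examined. All statements on DKO ovaries rest on their label in this respect. Of 10 pre-granulosa markers, 5 passed an adjusted p under 0.05 as lower in DKO ovaries and 4 in Foxl2 KO ovaries, where 0.857% and 0.704% of all genes did. The list was not uniform: none passed as higher, but 4 markers lay above 0 in each comparison, 3 of them in DKO ovaries and 2 in Foxl2 KO ovaries at an unadjusted p under 0.05. Of 13 Sertoli markers, 5 passed as higher and 0 as lower in each, where 2.13% and 1.52% of all genes passed in either direction. This list was not uniform either: 4 markers lay below 0 in DKO ovaries and 3 in Foxl2 KO ovaries. At an unadjusted p under 0.05 (limma), 0 were lower in DKO ovaries and 1 in Foxl2 KO ovaries. Control ovary 4 stood apart, with an erythroid marker score of 3.41 against at most 0.01 in the other 15 ovaries. A marker score is the mean over a list's measured genes of the log2 level minus that gene's mean over the 16 ovaries.

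All 10 members gave a signal above the background of the array. Their group means ran from 7.49 to 12.63 on the log2(intensity + 16) scale, while the highest group mean of 3 Y-linked genes, which XX ovaries cannot transcribe, was 5.48. Differences below are log2 fold changes on that same scale, with the standard error of the limma fit across all 18193 genes and with Benjamini-Hochberg adjusted p-values over all of them. Genes with an adjusted p under 0.05 are the ones described as called.

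**Figure D1:**
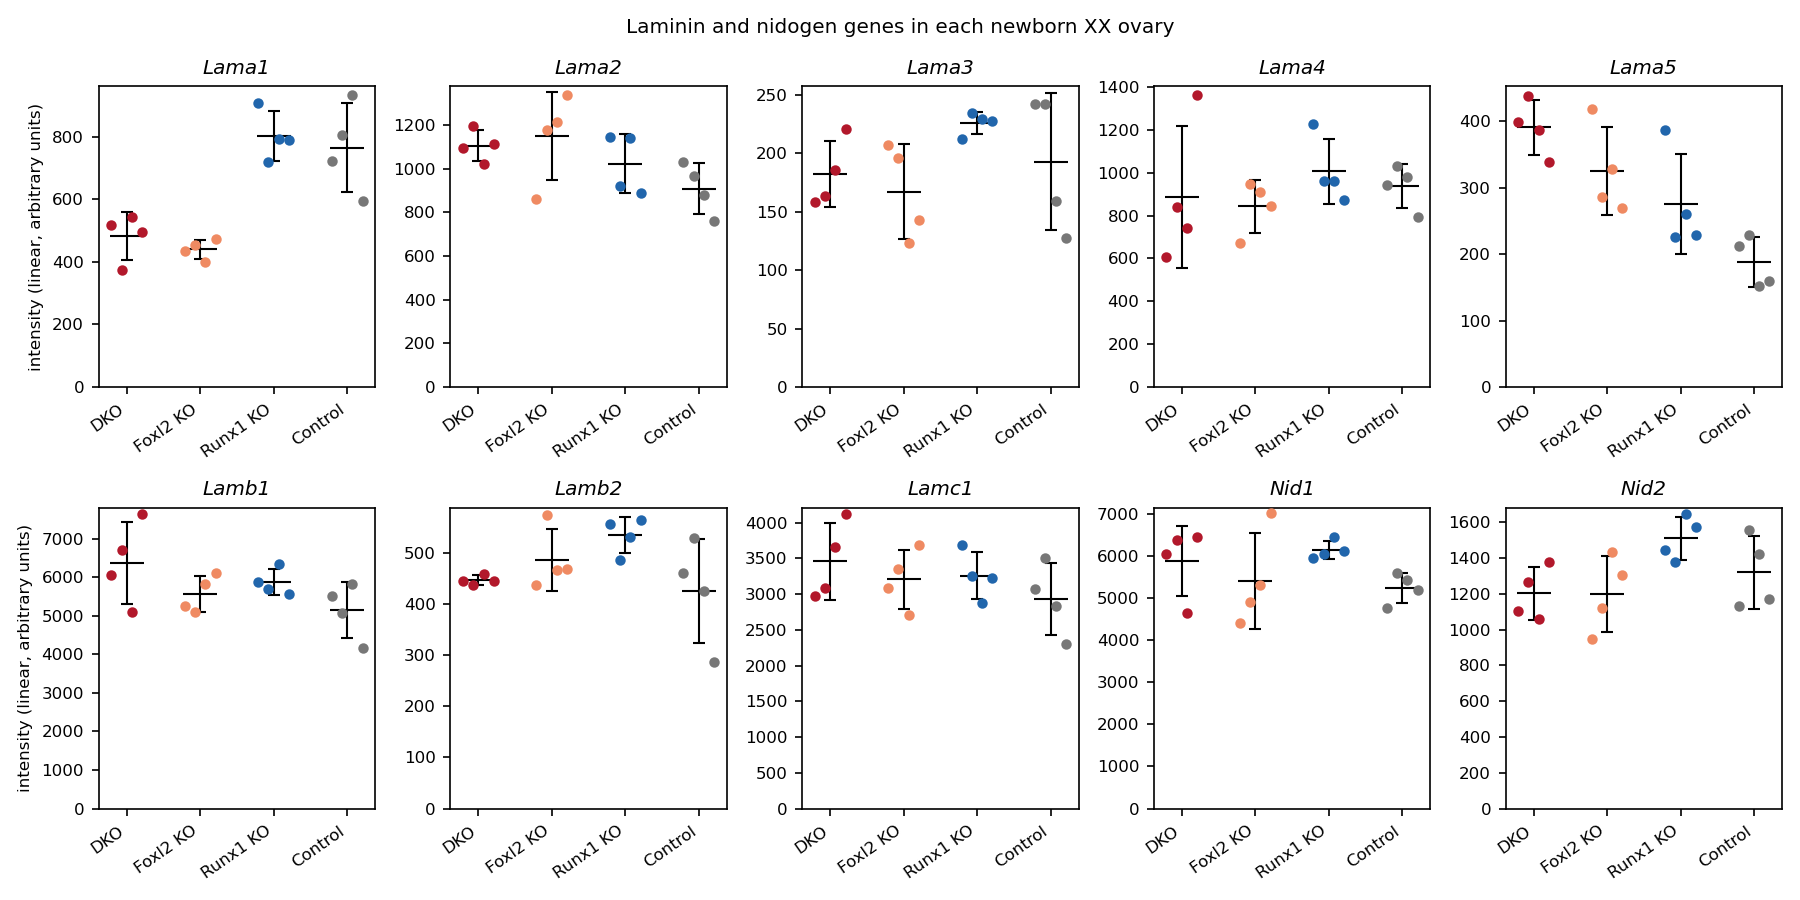
Intensity (linear, arbitrary units) of the 10 laminin and nidogen genes in each newborn XX ovary, by genotype; each point is 1 ovary, the wide bar is the mean of 4 ovaries and the error bar is the SD. Lama1 lay lower in DKO and Foxl2 KO ovaries than in every control ovary, and Lama5, on the probe set used, lay higher there than in every control ovary.

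Among the members, the α1 and α5 chain transcripts differed from control in opposite directions. In DKO ovaries 2 of 10 members were called, Lama5 higher and Lama1 lower, against 2.13% of all genes called (1.28% higher and 0.857% lower). In Foxl2 KO ovaries 1 of 10 members was called, Lama1 lower, against 1.52% of all genes (0.704% lower). In Runx1 KO ovaries 0 of 10 members were called, against 0.121% of all genes. At an unadjusted p under 0.05 the limma counts were 3 members in DKO ovaries, 3 in Foxl2 KO ovaries and 2 in Runx1 KO ovaries, where 12.4%, 11% and 7.34% of all genes passed. Neither β chain, nor Lamc1, nor either nidogen was called in any of the 3 comparisons with control. These 3 comparisons share the same control ovaries.

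Lama1 encodes the α1 chain. Its intensity was 519, 373, 545 and 494 in the 4 DKO ovaries, 434, 455, 400.2 and 472 in the 4 Foxl2 KO ovaries, 908, 718, 792 and 791 in the 4 Runx1 KO ovaries, and 723, 806, 934 and 595 in the 4 control ovaries. Every ovary that lacked Foxl2 lay below every ovary that carried it. The means were 483 ± 76.1 in DKO ovaries, 440.1 ± 30.8 in Foxl2 KO ovaries, 802 ± 78.7 in Runx1 KO ovaries and 764 ± 142 in control ovaries (SD, n = 4 each).

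Lama1 fell in Foxl2 KO ovaries, with a log2 fold change of -0.76 ± 0.15 (SE, limma adjusted p = 0.0159), a 1.69-fold difference. It also fell in DKO ovaries, by 0.64 on the log2 scale (SE 0.15, limma adjusted p = 0.0363), a 1.56-fold difference. In Runx1 KO ovaries the log2 fold change was 0.08 ± 0.15 (limma adjusted p = 0.932), with a 95% interval of -0.24 to 0.40. DKO ovaries lay below Runx1 KO ovaries by -0.72 ± 0.15 (limma adjusted p = 0.0307), and the difference of DKO from Foxl2 KO ovaries was 0.12, with an interval of -0.20 to 0.44. The order of the group means was thus Foxl2 KO, DKO, control and Runx1 KO, and neither the lower pair nor the upper pair differed within itself beyond the spread.

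Both calls of Lama1 lay near the threshold. The Foxl2 KO call was lost when Control ovary 2 (adjusted p = 0.0528), Control ovary 3 (0.0605) or Foxl2 KO ovary 3 (0.0555) was left out of the limma fit. The DKO call was lost without any one of Control ovaries 1, 2 and 3, DKO ovaries 1, 2 and 4 and Foxl2 KO ovary 2, where the adjusted p ran up to 0.111. It was also lost when arrays were scaled to equal medians (adjusted p = 0.0697), with the replicate number as a block (0.0707) or when only the compared groups entered the limma fit (0.157), and in the last case the Foxl2 KO call was lost too (0.0698). With Control ovary 4, the one with the high erythroid score, left out, the limma log2 fold change was -0.75 in DKO ovaries (adjusted p = 0.0143) and -0.87 in Foxl2 KO ovaries (adjusted p = 0.00660). Lama1 has 1 probe set on the array, so no second measurement of it exists here.

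Lama5 encodes the α5 chain. Its intensity was 398, 439, 387 and 339 in the 4 DKO ovaries, 418, 286, 328 and 269.7 in the 4 Foxl2 KO ovaries, 386, 226, 260.0 and 229 in the 4 Runx1 KO ovaries, and 212, 229, 153 and 160.3 in the 4 control ovaries. All DKO and all Foxl2 KO ovaries lay above all controls, while Runx1 KO ovaries overlapped them. The highest Runx1 KO ovary, at 386, lay among the DKO ovaries. The means were 391 ± 41.2 in DKO ovaries, 325 ± 66.4 in Foxl2 KO ovaries, 275 ± 75.5 in Runx1 KO ovaries and 188 ± 37.7 in control ovaries (SD, n = 4 each).

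Lama5 rose in DKO ovaries, with a log2 fold change of 1.01 ± 0.19 (SE, limma adjusted p = 0.00753), a 2.01-fold difference. In Foxl2 KO ovaries the log2 fold change was 0.74 ± 0.19 and missed the threshold (limma adjusted p = 0.0683). It did pass, with an adjusted p of 0.0342, when Runx1 KO ovary 1 was left out of the shared fit. In Runx1 KO ovaries the log2 fold change was 0.50 ± 0.19 (limma adjusted p = 0.571). The 4 group means ran in the order control, Runx1 KO, Foxl2 KO and DKO. DKO ovaries exceeded Foxl2 KO ovaries by 0.27, with an interval of -0.13 to 0.66, and Runx1 KO ovaries by 0.51 ± 0.19 (limma adjusted p = 0.341), and the single knockouts overlapped each other.

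The DKO call of Lama5 held in the limma fit with each of the 16 ovaries left out in turn, where the adjusted p lay between 0.00321 and 0.0299. It depended on the probe set. The set used, the brightest of 3, carries the suffix that marks sets shared by several transcripts. The second set gave intensities of 166, 129.7, 175 and 116 in DKO ovaries, 142, 151, 161 and 103 in Foxl2 KO ovaries, 154, 90.5, 56.3 and 112 in Runx1 KO ovaries and 80.9, 105, 44.7 and 75.6 in control ovaries. On it the Foxl2 KO ovaries overlapped the controls. Its DKO ovaries again lay above all controls, by 0.84 ± 0.25 on the log2 scale, but with an adjusted p of 0.134 in the limma fit over all probe sets and of 0.119 over genes without shared sets. The third set had a mean log2 level of 4.52, below the 5.48 of the Y-linked genes, and differed by 0.17 ± 0.27. With the mean of all 3 sets in its place, the DKO difference was 0.67 and the adjusted p 0.0591.

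**Figure D2:**
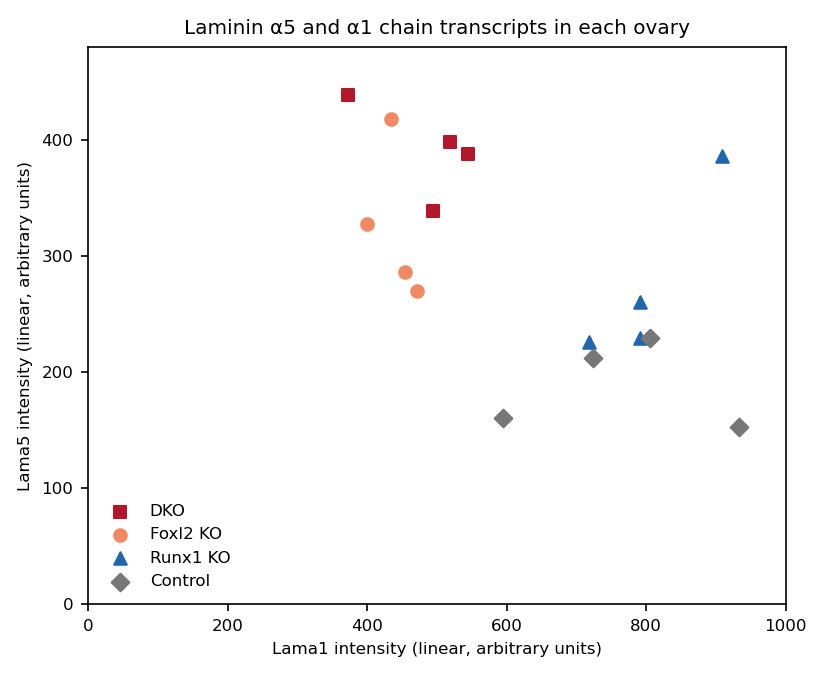
Lama5 against Lama1 intensity (both linear, arbitrary units) in each of the 16 ovaries; each point is 1 ovary, and shape and colour give the genotype. DKO and Foxl2 KO ovaries sit at low Lama1 and high Lama5, apart from the Runx1 KO and control ovaries.

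The contrast between the α5 and α1 chains can be read inside each ovary, where the scaling of the array cancels. Lama5 minus Lama1 on the log2 scale was -0.37, 0.23, -0.47 and -0.52 in DKO ovaries, -0.05, -0.64, -0.28 and -0.77 in Foxl2 KO ovaries, -1.20, -1.60, -1.55 and -1.72 in Runx1 KO ovaries, and -1.70, -1.75, -2.49 and -1.79 in control ovaries. The single level of this difference has no meaning, since probe sets differ in brightness, but its shift between ovaries does not depend on that. The mean lay 1.65 above control in DKO ovaries, 1.497 above it in Foxl2 KO ovaries and 0.42 above it in Runx1 KO ovaries. On the probe sets used, the ovaries that lacked Foxl2 did not overlap those that carried it. The pair was picked for its calls, so the shift is a description.

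The remaining α chains were not called. Lama2, the α2 chain, had an intensity of 1022 to 1195 in DKO ovaries, 862 to 1336 in Foxl2 KO ovaries, 890.5 to 1144 in Runx1 KO ovaries and 763 to 1029 in control ovaries. Its log2 fold change was 0.28 ± 0.15 in DKO ovaries and 0.32 ± 0.15 in Foxl2 KO ovaries, and the limma adjusted p-values were 0.475 and 0.443. Lama4, the α4 chain, spread most among the DKO ovaries, from 608 to 1364, against 795 to 1030 in control ovaries. Its log2 fold change was -0.13 ± 0.20 in DKO ovaries. Lama3, the α3 chain, had an intensity of 159 to 221 in DKO ovaries, 123 to 207 in Foxl2 KO ovaries, 212 to 234 in Runx1 KO ovaries and 128 to 242 in control ovaries. Its 2 probe sets pointed in opposite directions in DKO ovaries, with -0.04 ± 0.20 for the brighter and 0.40 ± 0.32 for the dimmer, so no direction can be given for it there.

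Lamb1 and Lamc1, the β1 and γ1 chains that most laminin trimers contain, were not called either. Lamb1 intensity was 6059, 6715, 5106 and 7637 in DKO ovaries, 5251, 5107, 5828 and 6107 in Foxl2 KO ovaries, 5889, 5706, 6349.6 and 5563 in Runx1 KO ovaries, and 5517, 5082, 5826 and 4172 in control ovaries. Of the DKO ovaries 3 lay above all controls, and DKO ovary 3 did not. The log2 fold change was 0.30 ± 0.14 in DKO ovaries (limma adjusted p = 0.393), and the 4 Lamb1 probe sets gave 0.30, 0.45, 0.35 and 0.54. Lamc1 had a log2 fold change of 0.24 ± 0.15 in DKO ovaries, 0.14 ± 0.15 in Foxl2 KO ovaries and 0.16 ± 0.15 in Runx1 KO ovaries. Control ovary 4 was its lowest control, and without it these values were 0.13, 0.03 and 0.05. A second Lamc1 set, nearly as bright, gave 0.34 ± 0.16 in DKO ovaries (adjusted p = 0.437 in the limma fit over all probe sets). In Foxl2 KO and Runx1 KO ovaries that set gave 0.23 ± 0.16 and 0.21 ± 0.16. For both genes the 95% interval in DKO ovaries reached no further than 0.60 on the probe set used, so a doubling lies outside it on that set. The dimmest Lamb1 set was less precise, at 0.54 ± 0.32.

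Lamb2 encodes the β2 chain, known from muscle, nerve and kidney basement membranes. Its intensity was 445, 438, 459.6 and 446 in DKO ovaries, 437, 575, 466 and 469 in Foxl2 KO ovaries, 558, 486, 532 and 565 in Runx1 KO ovaries, and 461, 529, 427 and 287 in control ovaries. Control ovary 4 was the lowest of all at 287. The log2 fold change in Runx1 KO ovaries was 0.35 ± 0.15 (limma adjusted p = 0.656) and was 0.18 without that ovary. In DKO ovaries it was 0.10 ± 0.15, and it turned to -0.07 without that ovary.

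Nid1 and Nid2 encode the nidogens. Nid1 intensity was 6049, 6371, 4653 and 6445 in DKO ovaries, 4413, 4894, 5300.2 and 7013 in Foxl2 KO ovaries, 5954, 6051, 6442 and 6105 in Runx1 KO ovaries, and 4754, 5587, 5421 and 5194 in control ovaries. On this probe set its Runx1 KO ovaries all lay above all controls, and its log2 fold change there was 0.23 ± 0.15 (limma adjusted p = 0.764). On the second set they overlapped, at 2768 to 3531 in Runx1 KO ovaries and 2162 to 3331 in control ovaries, with a log2 fold change of 0.17 ± 0.18. Nid2 intensity was 1059 to 1381 in DKO ovaries, 946 to 1433 in Foxl2 KO ovaries, 1378 to 1648 in Runx1 KO ovaries and 1132 to 1556 in control ovaries. Its log2 fold change was -0.13 ± 0.15 in DKO ovaries, -0.14 ± 0.15 in Foxl2 KO ovaries and 0.20 ± 0.15 in Runx1 KO ovaries.

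**Figure D3:**
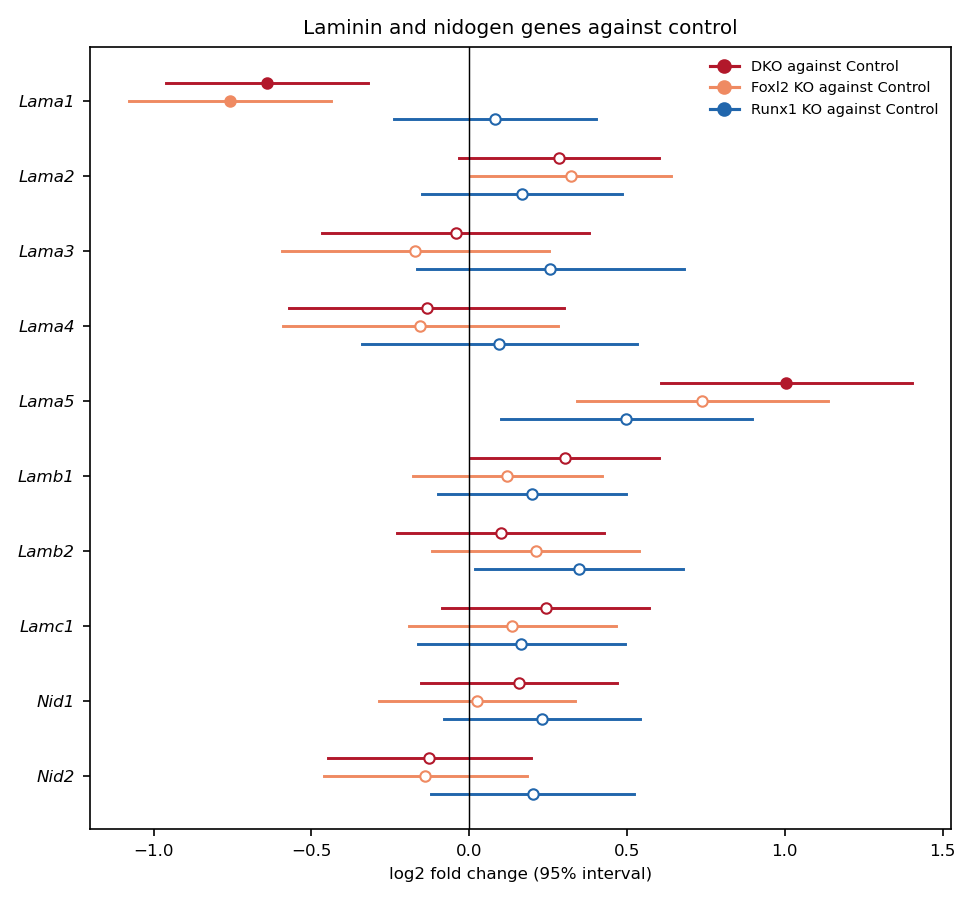
Log2 fold change against control (x axis) of the 10 members (rows) in DKO, Foxl2 KO and Runx1 KO ovaries; points are the limma estimates, lines their 95% intervals, and filled points passed an adjusted p under 0.05. The filled points are Lama1 in DKO and Foxl2 KO ovaries and Lama5 in DKO ovaries.

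Counted without a threshold, 6 of 10 members were above 0 in DKO ovaries, 6 of 10 in Foxl2 KO ovaries and 10 of 10 in Runx1 KO ovaries, while 57.3%, 58.9% and 56.3% of all genes were above 0. The median over the members was 0.13 in DKO ovaries, 0.07 in Foxl2 KO ovaries and 0.20 in Runx1 KO ovaries, beside medians of 0.04, 0.05 and 0.04 over all genes. Control ovary 4 was the lowest of its group for 7 of 10 members. Without it the Runx1 KO median was smaller, at 0.10, and 9 of 10 members were still above 0. The part of the high erythroid signal of that ovary in these values was not tested.

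On the probe sets used, complete separation of the 4 ovaries from the 4 controls was seen for 2 members in DKO ovaries (Lama5 above, Lama1 below), for the same 2 in Foxl2 KO ovaries and for Nid1 in Runx1 KO ovaries. Among all genes, 7.61%, 6.72% and 3.97% were separated in these 3 comparisons.

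The DKO was also set against each single knockout, which asks what the loss of the second factor added. Against Foxl2 KO ovaries 0 of 10 members were called in the limma fit, and 0 passed an unadjusted p under 0.05. Of all genes, 0.0605% were called and 5.38% passed unadjusted. Against Runx1 KO ovaries 1 of 10 members was called, Lama1 lower, where 0.989% of all genes were called and 0.566% were called lower. At an unadjusted p under 0.05 there were 3 members, among 9.43% of all genes: Lama1, Lama5 and Nid2, the last at -0.33 ± 0.15 (limma adjusted p = 0.518). Lamb2 in DKO ovaries lay below all 4 Runx1 KO ovaries, by -0.25 ± 0.15 (limma adjusted p = 0.711). The call of Lama1 against Runx1 KO ovaries was lost without any one of DKO ovaries 1, 2 and 4 and Runx1 KO ovaries 1, 3 and 4, with an adjusted p of up to 0.1003 in the limma fit. It was also lost with equal array medians (adjusted p = 0.0697), the replicate block (0.0686) or the compared groups only (0.0965).

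The interaction term asks whether the DKO differed from the sum of both single losses. In the limma fit 0 of 10 members were called for it and 0 passed an unadjusted p under 0.05, while 0.011% of all genes were called and 5.33% passed unadjusted. For Lama1 the term was 0.04 ± 0.21, with a 95% interval of -0.42 to 0.49. For Lama5 it was -0.23 ± 0.26, with an interval of -0.79 to 0.33. The largest in size among the members was that of Lamb2, -0.46 ± 0.22 (limma adjusted p = 0.910), which was -0.29 without Control ovary 4.

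**Figure D4:**
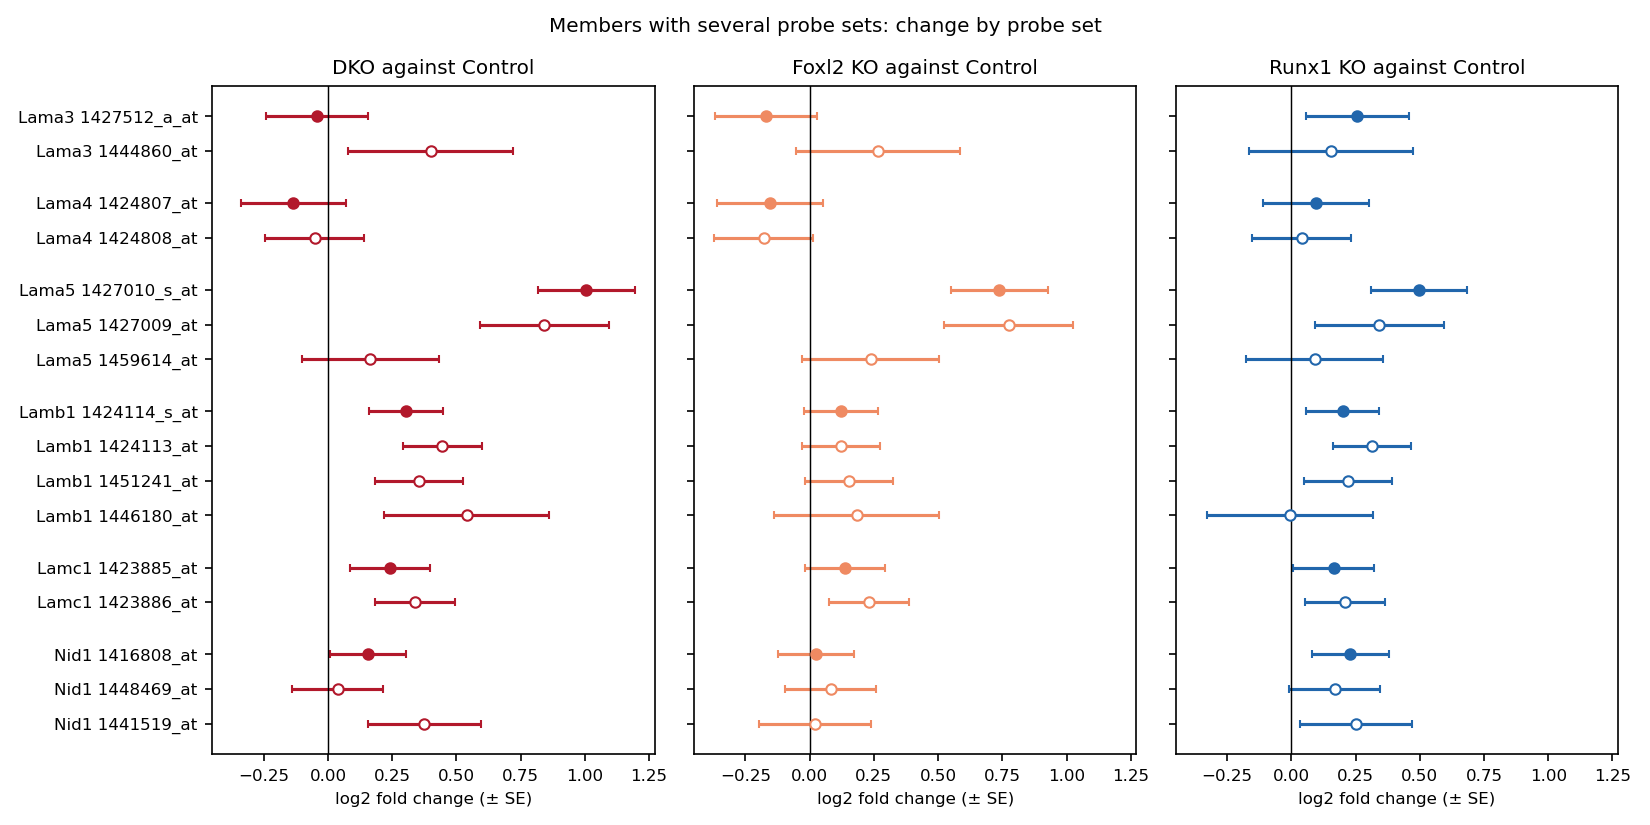
Log2 fold change against control (x axis) for each probe set (rows) of the 6 members with several sets, in DKO, Foxl2 KO and Runx1 KO ovaries; bars are ± 1 SE, and filled points mark the probe set used for the gene. The brighter Lama5 sets agree at 1.01 and 0.84 in DKO ovaries, and the Lama3 sets lie on opposite sides of 0.

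Markers of other cells moved with these results in part. The pre-granulosa score, which holds Foxl2 itself, was -0.51 to -0.39 in DKO ovaries, -0.51 to -0.18 in Foxl2 KO ovaries, 0.14 to 0.47 in Runx1 KO ovaries and 0.15 to 0.68 in control ovaries, and so separated the ovaries as Lama1 did. The Sertoli score, over 13 markers, did the same in the other direction, at 0.17 to 0.40 in DKO ovaries, 0.12 to 0.64 in Foxl2 KO ovaries, -0.33 to -0.12 in Runx1 KO ovaries and -0.63 to -0.30 in control ovaries. The mesonephric epithelium score was -0.01 to 0.55 in DKO ovaries, -0.02 to 0.25 in Foxl2 KO ovaries, -0.19 to 0.10 in Runx1 KO ovaries and -0.49 to -0.12 in control ovaries. Like Lama5 on the probe set used, it lay above all controls in both groups that lacked Foxl2. Of its 7 measured markers 1 was called in DKO and in Foxl2 KO ovaries, the transcription factor Pax8, higher in both. In each of these comparisons 5 of the 7 lay above 0 and 2 below it. Besides Pax8, Cdh16 lay above all controls in DKO ovaries (157 to 212 against 83.2 to 139.6). Its Runx1 KO ovaries were at 128 to 240. Wnt7b lay above all controls in Foxl2 KO ovaries (36.5 to 55.3 against 11.3 to 31.9). Lhx1, a further kidney and mesonephros marker, read 2.60 to 30.4 over all 16 ovaries. The surface epithelium score overlapped between groups, at -0.46 to 0.02 in DKO ovaries, -0.39 to 0.18 in Foxl2 KO ovaries, -0.04 to 0.44 in Runx1 KO ovaries and -0.19 to 0.19 in control ovaries. Of its 10 genes 0 were called, and in DKO ovaries 1 was higher and 3 lower at an unadjusted p under 0.05 (limma). Krt8 separated the ovaries as Lama1 did, at 773 to 1521 in DKO and 1163 to 1348 in Foxl2 KO ovaries. It was at 1747 to 2480 in Runx1 KO and 1693 to 2380.5 in control ovaries. In DKO ovaries Krt18 lay below all controls (1020 to 1967 against 2200 to 2883) and Aldh1a2 above them (3056 to 3391 against 2170 to 2734). Of the endothelial, stromal and smooth muscle lists, with 10 measured markers each, none had a called gene in the comparisons with control. In whole ovaries fewer cells of a type and less RNA per cell cannot be told apart, and the part of any cell type in the Lama1 and Lama5 differences was not tested.

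The deviations of the members from their group means were also compared over the ovaries. After each group mean was removed, 37 of the 45 pairs of members correlated above 0 over the 16 ovaries, with a median Pearson r of 0.29. The closest pair was Nid1 and Nid2, at r = 0.69 (Spearman rho 0.79), followed by Lama3 and Lamc1 at r = 0.65 (rho 0.58). Points share an array and its scaling, and pairs of other genes were not counted in the same way. The values are therefore a description and show no trait of the family. Without Control ovary 4 the median fell to 0.13 and 29 pairs were above 0, while Nid1 and Nid2 kept r = 0.72.

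The genes whose pattern was most like Lama1 over the 16 ovaries, among all 18193, were Angptl1 (Pearson r = 0.94), Metrnl (r = 0.94) and Spin2c (r = 0.92). For Lama5 they were Capsl (r = 0.87), Gpt2 (r = 0.87) and Ecrg4 (r = 0.86). The 16 points include the differences between genotypes.

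The other laminin chains read at or near background. Lamb3 and Lamc3, the 2 of this list that were measured, had group means of 5.21 to 5.88 on the log2 scale, beside the 5.48 of the Y-linked genes, and neither was called. Lamc3 had the smaller p-value in each comparison, with log2 fold changes of 0.37 ± 0.29 in DKO ovaries, 0.56 ± 0.29 in Foxl2 KO ovaries and 0.53 ± 0.29 in Runx1 KO ovaries. The genes that laminins and nidogens meet in the basement membrane were then taken as 5 further lists. Of 19 basement membrane partners, 1 rose and 1 fell in DKO ovaries, 1 rose and 1 fell in Foxl2 KO ovaries, and 0 were called in Runx1 KO ovaries. At an unadjusted p under 0.05 (limma), 3 were higher and 2 lower in DKO ovaries and 4 higher and 2 lower in Foxl2 KO ovaries. In Runx1 KO ovaries 1 was higher and 2 were lower. Of all genes, 12.4%, 11% and 7.34% passed unadjusted in these 3 comparisons. The median over the list was 0.02 in DKO ovaries, 0.10 in Foxl2 KO ovaries and -0.03 in Runx1 KO ovaries. The nearest to a call in Runx1 KO ovaries was Hmcn1, which encodes hemicentin 1, at -0.47 ± 0.19 (limma adjusted p = 0.616).

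Ntn4 encodes netrin 4, a laminin-like protein that binds the laminin γ1 chain and can open the laminin polymer. Its intensity was 293, 312, 236 and 246 in DKO ovaries, 268, 198, 211 and 307 in Foxl2 KO ovaries, 656, 931, 613 and 1148 in Runx1 KO ovaries, and 574, 521, 1087 and 849 in control ovaries. Every ovary that lacked Foxl2 lay below every ovary that carried it, as for Lama1. Ntn4 fell by 1.37 on the log2 scale in DKO ovaries (SE 0.24, limma adjusted p = 0.00504) and by 1.52 in Foxl2 KO ovaries (SE 0.24, limma adjusted p = 0.00320). Its log2 fold change was 0.16 ± 0.24 in Runx1 KO ovaries. These calls held with each ovary left out in turn, and a second probe set showed DKO ovaries at 42.5 to 145 and Foxl2 KO ovaries at 39.8 to 74.5, against 225 to 426 in Runx1 KO ovaries and 164 to 258 in control ovaries.

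Fbln2 encodes fibulin 2, which binds nidogens and laminin α chains. Its intensity was 529, 264, 525 and 426 in DKO ovaries, 462, 580.2, 321 and 695 in Foxl2 KO ovaries, 213, 115, 239.9 and 202 in Runx1 KO ovaries, and 118, 293, 162 and 121 in control ovaries. All Foxl2 KO ovaries lay above all controls, while DKO ovary 2 lay below Control ovary 2. Fbln2 rose in Foxl2 KO ovaries by 1.52 ± 0.31 on the log2 scale (limma adjusted p = 0.0198) and in DKO ovaries by 1.29 ± 0.31 (limma adjusted p = 0.0419). The DKO call was lost in 10 of the 16 limma fits that each left out 1 ovary and the Foxl2 KO call in 5 of 16, with adjusted p-values of up to 0.133 and 0.0754. Removal of Control ovary 1, 3 or 4 or Foxl2 KO ovary 2 ended both calls, that of DKO ovary 1, 3 or 4, Foxl2 KO ovary 1 or Runx1 KO ovary 1 or 4 ended the DKO call, and that of Foxl2 KO ovary 4 ended the Foxl2 KO call. Of 13 other settings, the DKO call was kept in 6 and the Foxl2 KO call in 8. The set used carries the suffix that marks sets matching several transcripts, and a second probe set read 17.7 to 38.1 in DKO ovaries, 3.29 to 23.6 in Foxl2 KO ovaries, 4.38 to 24.8 in Runx1 KO ovaries and 1.43 to 28.2 in control ovaries, too low to check the first. With that second set in its place the log2 fold change was 0.59 in DKO ovaries (limma adjusted p = 0.468) and 0.12 in Foxl2 KO ovaries (0.925), and with the mean of both sets it was 0.94 (0.0544) and 0.82 (0.131).

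**Figure D5:**
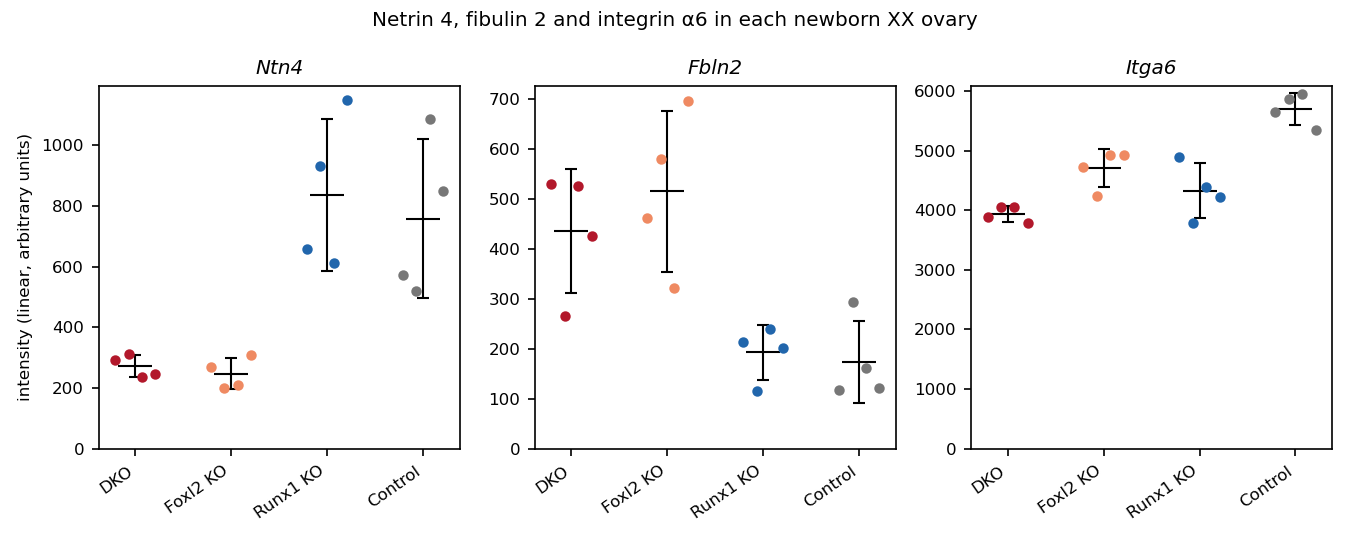
Intensity (linear, arbitrary units) of Ntn4, Fbln2 and Itga6 in each newborn XX ovary, by genotype; each point is 1 ovary, the wide bar the mean of 4 ovaries and the error bar the SD. Ntn4 separates the ovaries by Foxl2, and Itga6, on the probe set shown, lies below all 4 controls in each knockout.

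Among 10 laminin receptor genes 1 was called, Itga6, lower in DKO ovaries, where 2.13% of all genes were called and 0.857% called lower. At an unadjusted p under 0.05 (limma) 1 was higher and 1 lower in DKO ovaries, and the same in Runx1 KO ovaries. The largest difference in DKO ovaries, 0.92, was that of Itgb4, with group means of 4.53 to 5.46, below the 5.48 of the Y-linked genes. Itga6 encodes integrin α6, the laminin-binding partner of the β1 and β4 integrin chains. Its intensity was 3885, 4056, 4058 and 3781 in DKO ovaries, 4732, 4246, 4931 and 4931 in Foxl2 KO ovaries, 4905, 3785, 4397 and 4224 in Runx1 KO ovaries, and 5645, 5879.6, 5958 and 5356 in control ovaries. On this probe set all knockout ovaries lay below all controls. On a second bright set only the DKO ovaries did, at 2780.3 to 2859, while Foxl2 KO ovaries at 3327 to 3993 and Runx1 KO ovaries at 2863 to 3590.2 overlapped the 3241 to 4760.2 of the control ovaries. Itga6 fell by 0.53 on the log2 scale in DKO ovaries (SE 0.11, limma adjusted p = 0.0130), a call that held with each ovary left out in turn and was lost when only the compared groups entered the fit (adjusted p = 0.0673). Of the methods' rules, the one that asks for a fold over 1.5 did not call it either, at a fold of 1.44. The log2 fold change was -0.28 ± 0.11 in Foxl2 KO ovaries and -0.40 ± 0.11 in Runx1 KO ovaries, where the limma adjusted p-values were 0.313 and 0.289. Integrin α6 is also known from germ cells. The 10 oocyte markers gave scores of -0.52 to 0.03 in DKO ovaries, -0.37 to 0.40 in Foxl2 KO ovaries, -0.22 to 0.57 in Runx1 KO ovaries and -0.62 to 0.34 in control ovaries, which overlapped, and 0 of them were called by limma. The part of germ cells in the Itga6 difference was not tested. Dag1, which encodes dystroglycan, differed by -0.15 ± 0.15 in DKO ovaries, and Itgb1, the β1 integrin, by -0.05 ± 0.12 there (both limma).

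None of the 6 type IV collagen genes was called in a comparison with control. In Foxl2 KO ovaries 2 of them were higher at an unadjusted p under 0.05 (limma), where 11% of all genes passed. The nearest was Col4a3, a chain of specialised basement membranes, with an intensity of 149 to 342 in Foxl2 KO ovaries and 73.4 to 140.4 in control ovaries and a log2 fold change of 1.01 ± 0.30 (limma adjusted p = 0.150). DKO ovaries, which also lacked Foxl2, overlapped the controls for Col4a3, at 73.5 to 207. Against Foxl2 KO ovaries 2 of the 6 genes were lower in DKO ovaries at an unadjusted p under 0.05 (limma), where 5.38% of all genes passed, and 0 were called. Col4a1, a chain of nearly every basement membrane, differed by 0.02 ± 0.12 in DKO ovaries and 0.12 ± 0.12 in Foxl2 KO ovaries. Its partner Col4a2 differed by -0.13 ± 0.15 in DKO ovaries. None of 8 measured enzymes that build the laminin-binding glycan of dystroglycan was called by limma, and 0 passed an unadjusted p under 0.05 in the comparisons with control. Against Runx1 KO ovaries 1 did in DKO ovaries, Pomgnt2 at -0.48 ± 0.16 (limma adjusted p = 0.243). The nearest to a call against control were B3galnt2 in DKO ovaries at -0.24 ± 0.13, Pomt2 in Foxl2 KO ovaries at -0.27 ± 0.15 and Pomgnt2 in Runx1 KO ovaries at 0.29 ± 0.16 (limma).

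None of 15 matrix proteases and inhibitors was called against control. At an unadjusted p under 0.05 (limma), 5 passed in DKO ovaries (1 higher, 4 lower) and 4 in Foxl2 KO ovaries (2 higher, 2 lower). In Runx1 KO ovaries 2 passed, both higher. Of all genes, 12.4%, 11% and 7.34% passed in these 3 comparisons. Mmp11, which encodes stromelysin 3, differed by -0.81 ± 0.20 in Foxl2 KO ovaries (limma adjusted p = 0.0582). Mmp7, which encodes matrilysin, differed by 0.74 ± 0.22 in DKO ovaries (limma adjusted p = 0.117), at intensities of 27.5 to 81.5 there and 20.7 to 26.1 in control ovaries. Plau, which encodes urokinase, was at 888 to 1142 in DKO ovaries, 789 to 945 in Foxl2 KO ovaries, 1292 to 1555 in Runx1 KO ovaries and 872 to 1099 in control ovaries. It was called between DKO and Runx1 KO ovaries, at -0.53 ± 0.12 (limma adjusted p = 0.0498), a call lost in 21 of 29 alternatives and kept among the fits without 1 ovary only when DKO ovary 4 or Control ovary 1 was left out, with an adjusted p of up to 0.157, and its log2 fold change of 0.49 ± 0.12 in Runx1 KO ovaries against control was not (limma adjusted p = 0.231).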

How the data were processed

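RNA of 16 single newborn XX ovaries was amplified from 50 ng and hybridised to Mouse Genome 430 2.0 arrays. The authors made the deposited intensity values with Affymetrix Expression Console (version 1.2 per the labels). The algorithm is not given in the sources used here. The values are linear and their 2% trimmed mean is 500.0 on each array. The study's methods describe tests on log2 RMA values made elsewhere, which were not used here.

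Probe sets were named through the platform annotation: 34945 of 45101 had 1 gene, 932 several and 9160 none, beside 64 control sets. Of several probe sets per gene the one with the highest mean was kept (18193 genes), log2(intensity + 16) was taken, and 1 limma model (version 3.58.1, R 4.3.3) with 4 group means was fitted with lmFit and eBayes, giving 6 contrasts with Benjamini-Hochberg adjustment over all genes. The fit was tested on simulated data. The number of arrays limits the precision: residual degrees of freedom were 12 and the median standard error was 0.20 on the log2 scale. Each array is 1 ovary, and the study's methods call the 4 ovaries of a genotype biological replicates. No 2 of the 120 pairs of arrays were identical.

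Members and gene lists were chosen with earlier results of these data known. All 10 members are named, and of each further list the called genes (up to 4) or else the gene with the smallest p-value in each comparison with control. Dag1, Itgb1, Itgb4, Col4a1, Pax8, Lhx1, Cdh16, Wnt7b, Krt8, Krt18 and Aldh1a2 were named after their values were seen. Scan dates were not used here. Other scalings, offsets, probe set rules, priors and fits, and each array left out, were tried.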

Additional observations from a re-analysis of the deposited data

How the results depend on the processing

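The count of members called against control in DKO ovaries, 2, was 1 with equal array medians, the mean of all probe sets, no shared probe sets, the replicate block or the compared groups only, and 1 to 2 with each array left out. That in Foxl2 KO ovaries, 1, was 2 with genes above the median level, the replicate block or the methods' analysis of variance (unadjusted p under 0.05 and fold over 1.5), 0 with the compared groups only, and 0 to 2 with each array left out. That of DKO against Runx1 KO ovaries, 1, was 0 with equal array medians, the replicate block or the compared groups only, and 0 to 1 with each array left out. The counts in Runx1 KO ovaries against control, in DKO against Foxl2 KO ovaries and for the interaction were 0 in the limma fit and in each alternative. The labels do not say whether ovaries that share a replicate number are paired. Over 24 pairs of arrays from different groups that share a number, the median correlation of deviations from the group means was -0.03, and 1 exceeded 0.1. Over 72 pairs from different groups with different numbers the median was 0.00016, and 8 exceeded 0.1. Which ovaries shared a litter is not given in the labels, and the part of litter was not tested. The block moved the calls over all genes in DKO ovaries against control to 310, against 388 without it. Calls over all genes, apart from the methods' unadjusted rule, ran from 272 to 465 in DKO ovaries (388 in the limma fit used), 175 to 329 in Foxl2 KO ovaries (276), 6 to 27 in Runx1 KO ovaries (22), 4 to 18 for DKO against Foxl2 KO (11), 104 to 248 for DKO against Runx1 KO (180) and 0 to 4 for the interaction (2). That rule called 1087, 914, 510, 402, 752 and 572 genes.

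Small differences that were not called changed sign. In DKO ovaries Lama3 was 0.18 with the mean of all probe sets, 0.40 without shared sets and -0.21 to 0.074 with each array left out, Lama4 was -0.36 to 0.022 with each array left out, and Lamb2 was -0.021 with array weights and -0.071 to 0.21 with each array left out. In Foxl2 KO ovaries Lama3 was 0.048 with the mean of all probe sets and 0.27 without shared sets, and Nid1 was -0.058 with equal array medians, -0.014 with quantile normalization, -0.0050 with array weights and -0.11 to 0.12 with each array left out. In Runx1 KO ovaries, with each array left out, Lama1 was -0.030 to 0.18, Lama4 -0.0038 to 0.16 and Ntn4 -0.0083 to 0.35, and Fbln2 was -0.039 without shared sets. The interaction of Lama1 was -0.065 to 0.15 with each array left out. No call of a member changed its direction in any alternative. The cause of these changes was not tested, beyond the fewer ovaries or other probe sets that the alternatives themselves use.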
